A study of Rattus norvegicus with 4 samples.

Results

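The vasopressin and oxytocin system was followed through the 2 hormone genes, Avp and Oxt, and the 4 receptor genes, Avpr1a, Avpr1b, Avpr2 and Oxtr. Members were the noncontrol probes of the rat whole-genome chip whose RefSeq accession resolves to 1 of these 6 symbols. This gave a readout for 5 of the 6 genes, among 8893 named genes in all. They had 6 of the 41012 probes and 33 of the 43379 noncontrol spots of each chip. No probe could be named as Avpr1b, the V1b receptor of pituitary and CA2 neurons, and it was not analysed here.

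The chips compared the hippocampus of male Wistar rats, obtained at 10 weeks of age, after 4 weeks in 3 conditions. They were a sedentary life (Sed, 10 rats), voluntary wheel running without load (WR, 8 rats), and voluntary running with load (RWR, 8 rats). In RWR the resistance of the wheel was raised to 30% of body weight. Per the study's methods, equal amounts of RNA from replicates of a group were pooled. By these amounts a pool held fewer replicates than its group had rats, and the sources used here do not name which. Each of 4 chips on 1 slide received a running and a sedentary pool in different dyes, WR with Sed on chips 1 and 2 and RWR with Sed on chips 3 and 4. The running pool carried Cy5 on chips 1 and 3 and Cy3 on chips 2 and 4. The dye-swapped chips repeat a measurement on unchanged pools, so each running group is 1 biological replicate. No test between the groups was possible, and every SD below is over 2 chips (n = 2) or over the spots of a chip and covers measurement error only. WR and RWR share the sedentary group as control.

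Vasopressin and oxytocin are short, closely related peptide hormones, cut from precursors that also carry a neurophysin. They are made mainly in the supraoptic and paraventricular nuclei of the hypothalamus, released from the posterior pituitary into the blood and from axons into the brain. The hippocampus receives such axons. Its own neurons carry receptors, among them the V1a receptor (Avpr1a) and the oxytocin receptor (Oxtr), which couple to Gq and phospholipase C, while the V2 receptor (Avpr2), best known from the collecting duct of the kidney, couples to Gs and cyclic AMP. In RNA of a whole tissue, fewer cells of a type and less RNA per cell cannot be told apart.

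Every ratio below is a log2 ratio of running over sedentary. It comes from the deposited log ratio of a spot, after background subtraction and dye normalization, turned for the dye swap and averaged over the spots of a probe. A signal is the processed fluorescence of 1 dye on 1 chip, in arbitrary units, and a reading is the value of a probe in 1 dye on 1 chip. To be called, a probe had to pass 1.5-fold upwards, or 0.75-fold downwards, on each of the chips of its pair, with no test behind it. Between 67.5% and 82.5% of spots were well above background in a reading, the median signal was 62.2 to 78.3, and no spot was saturated. After the turn for the dyes, Pearson's r over all probes was -0.761 between chips 1 and 2 and -0.686 between chips 3 and 4, a description of the chips in which probes are not replicates. The part of the ratio that followed the dye had an SD over probes of 0.63 in WR and 0.62 in RWR, against 0.24 and 0.27 for the mean ratio of a pair. The ratio of a single chip was therefore read only together with that of its dye-swapped partner.

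None of the 6 member probes was called in either comparison. In WR, 0.549% of all probes were called by fold and 0.0317% when the deposited p-value, which comes from the scanner software's error model for a single chip, was also under 0.01 on both chips. In RWR these shares were 1.48% and 0.0585%. In WR all 6 member probes had opposite signs on the 2 chips. Over all probes 10.7% were below 0 on both WR chips and 11.6% above 0 on both. In RWR 1 of the 6, Avp, was below 0 on both chips, where 14.8% of all probes were, and 1 of the 6, Avpr2, was above 0 on both, where 12.4% were. These counts of members are too small to be set apart from the shares over all probes. The plot of ratios by chip shows the 5 probes with a signal above background.

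**Figure D1:**
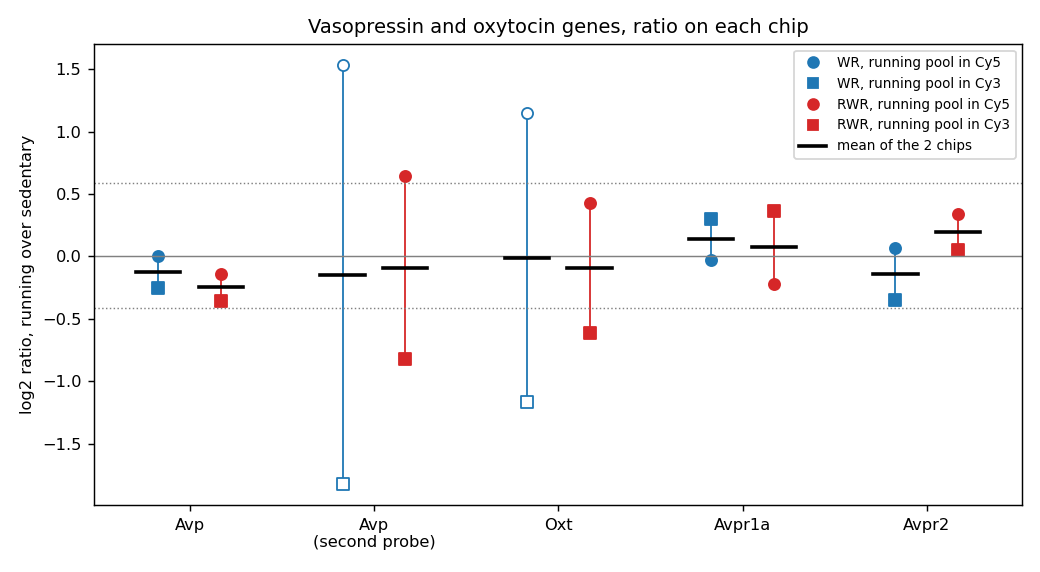
Log2 ratio of running over sedentary on each chip (y axis) for 5 probes (x axis), with WR in blue and RWR in red, circles where the running pool carried Cy5 and squares where it carried Cy3. Filled markers were well above background in both dyes, open markers were not, black bars are the mean of the 2 chips and dotted lines mark 1.5-fold and 0.75-fold. The main Avp probe lies between 0.00092 and -0.36 on the 4 chips, while Oxt and the second Avp probe swing with the dye, by up to 1.53 and -1.83 in WR.

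The hormone genes come first. Avp and Oxt are direct neighbours on rat chromosome 3, with 0 genes listed between them, and are transcribed from opposite strands. Their promoters are shown because the 2 genes are neighbours, and the letters were not set against the ratios. The windows run from 250 bases before to 50 bases after the start of transcription in RefSeq, on the GRCr8 build, and are written 5′ to 3′ on the strand of the gene. The Avp window is chr3:138248473-138248772 on the minus strand and the Oxt window is chr3:138235504-138235803 on the plus strand. Capitals mark matches to 3 motifs searched on both strands, the E-box CACGTG, the nuclear receptor hexamer AGGTCA, which is TGACCT when read on the other strand, and the cyclic AMP response element TGACGTCA.
Avp: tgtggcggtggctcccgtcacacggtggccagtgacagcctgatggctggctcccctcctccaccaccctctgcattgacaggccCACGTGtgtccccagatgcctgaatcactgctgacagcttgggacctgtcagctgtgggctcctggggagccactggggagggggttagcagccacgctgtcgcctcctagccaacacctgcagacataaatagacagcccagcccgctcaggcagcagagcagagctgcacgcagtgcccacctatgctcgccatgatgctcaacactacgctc
Oxt: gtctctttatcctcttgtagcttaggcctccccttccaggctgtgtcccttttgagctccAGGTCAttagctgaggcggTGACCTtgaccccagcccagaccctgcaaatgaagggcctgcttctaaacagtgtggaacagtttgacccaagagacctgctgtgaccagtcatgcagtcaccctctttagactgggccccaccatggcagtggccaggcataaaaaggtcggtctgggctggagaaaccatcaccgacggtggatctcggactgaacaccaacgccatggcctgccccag
The Avp window held the E-box once, beginning at base -165 from the start. The Oxt window held the hexamer as AGGTCA at -190 and as TGACCT at -171. No matches overlapped. Over 33469 rat promoters of the same length, 6.42% held the E-box, 16.2% the hexamer and 1.83% the cyclic AMP element. The windows of the 4 receptor genes held none of these letters. A match is a description of the letters and says nothing about binding in these rats.

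Avp had the smallest spot SD of the 3 members with repeated spots. Its main probe, A_44_P254016, was printed at 10 spots, and all 10 were well above background in each of the 8 readings. The signals of the sedentary pool were 149, 151, 166 and 152 on chips 1 to 4. Those of the WR pool were 149 and 127, and those of the RWR pool 151 and 118. The running signal was below its sedentary partner on 3 chips and level with it on chip 1.

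The log2 ratios of Avp were 0.00092 on chip 1 and -0.25 on chip 2 for WR, and -0.14 on chip 3 and -0.36 on chip 4 for RWR. The spot SD was 0.064, 0.079, 0.054 and 0.080 on the 4 chips, and 6, 10, 10 and 10 of 10 spots were below 0. The mean of the pair was -0.12 (SD 0.18) in WR, a fold of 0.918, and -0.25 (SD 0.15) in RWR, a fold of 0.842. Avp was thus lower on both RWR chips and on 1 of 2 WR chips, by less than the 0.75-fold used for a call.

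Averaged over the dye swap at each of the 10 printed positions, Avp was below 1 at 10 of 10 positions in both comparisons. The folds ran from 0.879 to 0.959 in WR (median 0.929) and from 0.799 to 0.870 in RWR (median 0.843). These ranges over positions did not overlap, but how often this holds at other probes with repeated spots was not counted. The spots of a chip share the same 2 pools and any error of the whole chip. Their agreement says nothing about the spread among rats. The plot of repeated spots sets this tight band beside the wider ones of Oxt and Avpr1a.

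**Figure D2:**
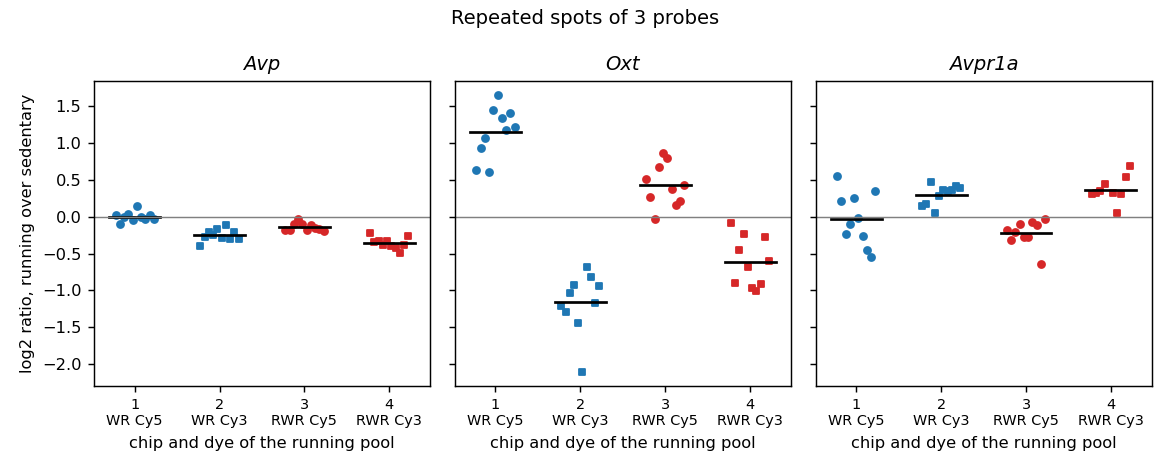
Log2 ratio of running over sedentary (y axis) at each repeated spot of the Avp, Oxt and Avpr1a probes, by chip and dye of the running pool (x axis), with WR in blue, RWR in red and the chip mean as a black bar. All 10 Avp spots lie below 0 on chips 2, 3 and 4. The Oxt spots change side with the dye, except that 1 spot on chip 3 is below 0 and 9 are above. The Avpr1a spots change side with the dye in RWR, but on chip 1 of WR 6 are below 0 and 4 above. An outlier spot of Avpr1a on chip 4 is left out.

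Levels of the pools within a dye gave the same order. After quantile normalization of the average signal across chips, which leaves the ratio within a chip as it was, the log2 level of Avp in Cy3 was 7.22 and 7.24 in the 2 sedentary readings, 7.08 in WR and 6.91 in RWR. In Cy5 it was 7.33 and 7.27 in the sedentary readings, 7.23 in WR and 7.10 in RWR. The sedentary readings of a dye differed by 0.01 and 0.06. RWR lay further below the mean of both sedentary readings (0.32 in Cy3 and 0.20 in Cy5) than WR did (0.15 and 0.07), and in Cy5 the step from WR to the nearer sedentary reading was within the gap of the sedentary readings.

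Avp was the 1 member with both running pools below both sedentary readings in both dyes, and with RWR below WR. Over all probes 9.49% had WR below both sedentary readings in both dyes and 13.2% had RWR below them. The full order of sedentary above WR above RWR in both dyes, which was looked for after the Avp values had been seen, was found at 0.951% of all probes. Set directly against each other in the same dye, the RWR ratio minus the WR ratio of Avp was -0.14 with the runners in Cy5 and -0.11 with the runners in Cy3, with a mean of -0.12 (SD 0.02). The distance between RWR and WR was as large as that between WR and sedentary, and neither was tested.

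Of the 24955 probes measured well above background in every reading, 1.53% had a mean ratio in RWR at or below that of Avp, and 3.02% were at least as far from 0. In WR 7.36% were at or below it and 16.0% at least as far from 0. The ratio of Avp in RWR was thus in the low tail of measured probes, in a comparison where 382 probes lay as low or lower.

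**Figure D3:**
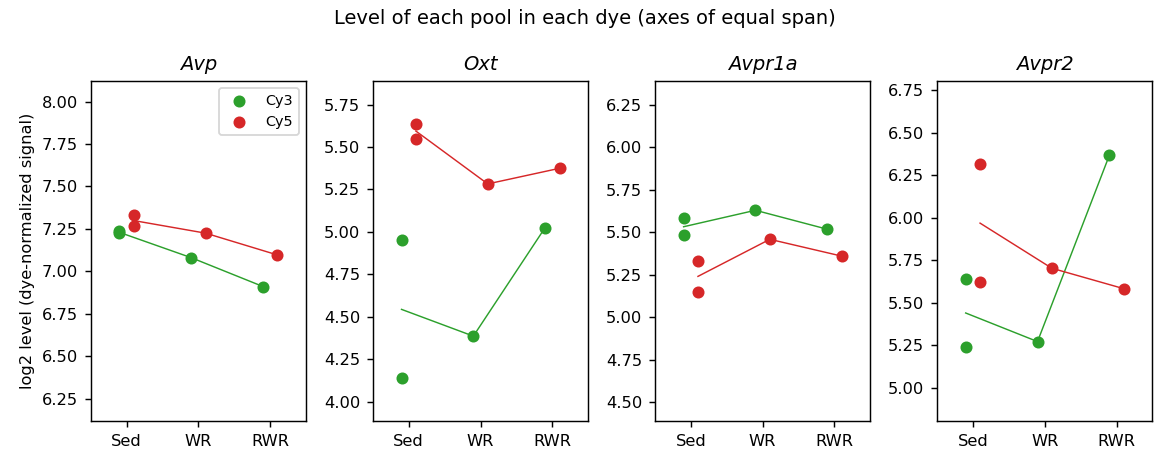
Log2 level of 4 probes (y axis, each panel spanning the same range) in the sedentary, WR and RWR pools (x axis), in Cy3 (green) and Cy5 (red), with a point for each reading and a line through the mean of the sedentary readings. The Avp level steps down from sedentary to WR to RWR in both dyes, from 7.23 to 6.91 in Cy3 and from 7.30 to 7.10 in Cy5. Oxt and Avpr2 show no full order of the pools that both dyes share, although WR is below the sedentary mean in both dyes.

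A second Avp probe, A_44_P452171, had a single spot near background. Its ratios were 1.53, -1.83, 0.64 and -0.82 on chips 1 to 4, with Cy5 the brighter dye on every chip. The signals were 47.6 over 16.4, 13.8 over 49.0, 44.8 over 28.6 and 24.9 over 44.1, and the sedentary pool on chip 1 and the WR pool on chip 2, both in Cy3, were not well above background. The means were -0.15 (SD 2.37) in WR and -0.09 (SD 1.04) in RWR. This probe cannot tell a change of the size seen at the main probe from none.

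Oxt, the gene of oxytocin, was read by 1 probe of 10 spots, A_44_P1020655, close to background. The signals of running over sedentary were 40.3 over 18.8 on chip 1 and 19.1 over 41.6 on chip 2. On chips 3 and 4 they were 45.1 over 34.1 and 34.5 over 51.7. The pool in Cy5 was the brighter on every chip. In Cy3, 1 of 10 sedentary spots on chip 1 and 0 of 10 WR spots on chip 2 were well above background.

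The Oxt ratios were 1.14 and -1.16 in WR and 0.42 and -0.61 in RWR, with a spot SD of 0.29 to 0.40. The mean was -0.01 (SD 1.63) in WR and -0.09 (SD 0.73) in RWR. At the 10 positions the folds of RWR ran from 0.768 to 1.16, with 7 below 1 and 3 above. No fold by position is given for WR, where the pool in Cy3 was near or at background on each chip. On chips 1 and 2 the deposited p-values of Oxt were 0.0088 and 0.0023, in opposite directions, so the p-value of a single chip did not mark a difference between the pools.

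The Oxt levels in Cy5, where all sedentary spots were above background, were 5.55 and 5.64 in the sedentary readings, 5.28 in WR and 5.37 in RWR. Both runners were lower there, by 0.31 and 0.22 from the sedentary mean. In Cy3 the sedentary readings were 4.14 and 4.95, WR was 4.39 and RWR 5.03. The gap of 0.81 between the sedentary readings in Cy3 was wider than any distance in Cy5, and the order of the pools in Cy5 was not found in Cy3. No change in oxytocin RNA was detectable at this signal.

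Of the receptors, Avpr1a was the 1 with repeated spots. The V1a receptor binds vasopressin with high affinity and acts through Gq. Its probe, A_43_P12751, had 10 spots well above background on all chips, 1 of which was flagged as an outlier on chip 4. The signals of running over sedentary were 43.6 over 45.1, 44.9 over 36.4, 44.9 over 52.3 and 47.6 over 36.7 on chips 1 to 4. The pool in Cy3 was the brighter on every chip, the reverse of the dye preference of Oxt.

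The Avpr1a ratios were -0.03 and 0.30 in WR, with a mean of 0.14 (SD 0.23), and -0.22 and 0.37 in RWR, with a mean of 0.07 (SD 0.42). The signs followed the dyes, with 10 of 10 spots below 0 on chip 3 and 9 of 9 above 0 on chip 4. Over positions the fold ran from 0.954 to 1.30 in WR, with 7 of 10 above 1, and from 0.967 to 1.25 in RWR, with 6 of 9 above 1. No position passed 1.5-fold, and the mean was smaller in RWR than in WR.

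By dye, the Avpr1a level in Cy3 was 5.48 and 5.58 in the sedentary readings, 5.63 in WR and 5.52 in RWR. In Cy5 it was 5.33 and 5.15 in the sedentary readings, 5.46 in WR and 5.36 in RWR. WR was above both sedentary readings in both dyes, as it was at 14.1% of all probes, whereas RWR lay between the sedentary readings in Cy3. No member had RWR above both sedentary readings in both dyes, where 11.4% of all probes did. The WR excess over the sedentary mean was 0.10 in Cy3 and 0.22 in Cy5, against sedentary gaps of 0.10 and 0.18. RWR minus WR was -0.20 with the runners in Cy5 and 0.07 with the runners in Cy3. At this probe the chips thus gave no Avpr1a difference between RWR and WR whose sign held in both dyes. The study names Avpr1a among the genes up-regulated by RWR, and lists primers for it for quantitative RT-PCR. Whether the chip holds another Avpr1a probe, not named here, is not known.

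Avpr2 was read at a single spot, A_43_P11944, well above background in every reading. Its signals were 51.2 over 48.9, 34.7 over 44.3, 52.3 over 41.3 and 83.1 over 80.1 on chips 1 to 4. Chip 4 was brighter in both dyes than any other chip. The ratios were 0.07 and -0.35 in WR, with a mean of -0.14 (SD 0.29), and 0.34 and 0.05 in RWR, with a mean of 0.20 (SD 0.20).

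Avpr2 was the 1 member higher on both RWR chips, by a mean fold of 1.15. RWR minus WR in the same dye was 0.28 and 0.41, with a mean of 0.34 (SD 0.09), short of 1.5-fold. Over all probes 5.23% passed 1.5-fold upwards or 0.75-fold downwards in both dyes, and 0 of the 6 member probes did. The levels did not keep this order. In Cy3 they were 5.64 and 5.24 in the sedentary readings, 5.27 in WR and 6.37 in RWR, and in Cy5 5.62 and 6.31, 5.70 and 5.58. The high RWR reading and the high sedentary reading are the 2 dyes of chip 4, where the ratio itself was 0.05. Without background correction the mean ratio in RWR was -0.02, and with normexp correction, a model that keeps dim signals above 0, it was 0.0007.

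Oxtr, the oxytocin receptor, was read at a single spot, A_44_P288043, that was not well above background in either dye on any chip. Its signals of running over sedentary were 5.38 over 8.55, 6.84 over 6.83, 4.07 over 8.38 and 13.3 over 8.07. The lowest signal well above background in a reading was 9.43 to 21.3. No fold is given for Oxtr, and at this signal neither its presence nor a difference between the pools was detectable.

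The deposited ratios rest on background-subtracted signals, and 2 other ways of handling the background were tried. With normexp correction the Avp ratios on chips 1 to 4 were 0.03, -0.18, -0.07 and -0.29, and without correction 0.03, -0.16, -0.06 and -0.25. The Avp mean was below 0 with both, at -0.07 and -0.07 in WR and at -0.18 and -0.15 in RWR, closer to 0 than the deposited ratio. For Oxt the mean was -0.19 and -0.03 in WR, and in RWR it was 0.02 and 0.01, opposite in sign to the deposited ratio. For Avpr1a the mean was -0.01 and 0.03 in WR and 0.04 and 0.03 in RWR. With normexp the 4 Avpr1a ratios were 0.04, -0.07, 0.09 and -0.01, and without correction 0.11, -0.05, 0.06 and 0.0024. The swing between the dyes was smaller than in the deposited ratios and in the other direction, higher with the runners in Cy5. The dye preference of the Avpr1a processed signals was thus not kept with either.

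**Figure D4:**
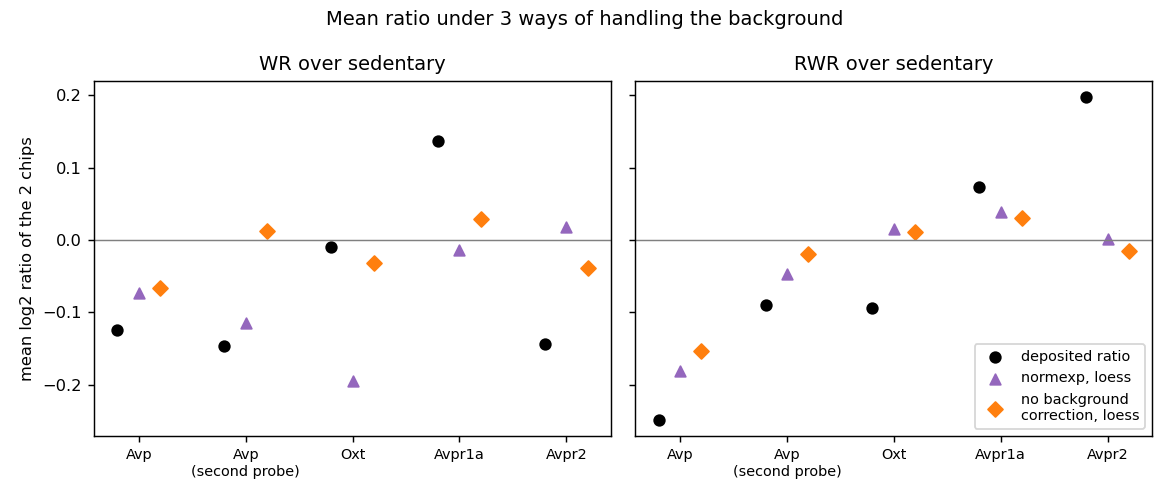
Mean log2 ratio of the 2 chips (y axis) for 5 probes (x axis) in WR (left) and RWR (right), with the deposited ratio as black circles, normexp correction as violet triangles and no background correction as orange diamonds. The main Avp probe is below 0 with each of them, at -0.25, -0.18 and -0.15 in RWR, while each of the other 4 probes changes sign in at least 1 of the 2 comparisons.

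The peptides need processing enzymes and a granule to reach a release site. All 9 genes of a list of peptide maturation, written with earlier results of these data known, had a probe, and all 9 were above background in every reading. In this and the later lists, a gene with a probe is one whose probe could be named. The other listed genes may have probes on the chip that were not named. Of the named genes, each represented by its probe of highest mean signal, 0.495% were called in WR and 1.57% in RWR, and 0 of these 9 were called in either. Their median ratio was 0.07 in WR and 0.03 in RWR, beside 0.0015 and -0.0046 over all named genes. Chgb, the granule protein secretogranin 1, had 0.27 and 0.02 on the WR chips and 0.10 and -0.11 on the RWR chips. Cpe, carboxypeptidase E, had 0.07 and 0.07 in WR and -0.06 and -0.03 in RWR. Scg5, the chaperone 7B2 of prohormone convertase 2, had -0.14 and 0.26 in WR and -0.26 and 0.10 in RWR. In WR 5 of the 9 were above 0 on both chips and 0 below, and in RWR 1 was above and 1 below. Over all probes 11.6% were above and 10.7% below in WR, and 12.4% and 14.8% in RWR. The counts were not tested against these shares.

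Downstream of the V1a and oxytocin receptors, 12 of 13 genes of the Gq and phospholipase C arm had a probe and 0 were called. Their median ratio was 0.06 in WR and 0.01 in RWR. Prkcb, a protein kinase C, had 0.06 and 0.01 in WR and 0.05 and 0.02 in RWR. Itpr1, a calcium channel gated by inositol trisphosphate, had 0.15 and 0.04 in WR and 0.13 and -0.10 in RWR. The arm gave 4 genes above 0 on both chips and 1 below, in WR and likewise in RWR. The shares over all probes were 11.6% above and 10.7% below in WR, and 12.4% and 14.8% in RWR, and the counts were not tested against them.

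In the Gs and cyclic AMP arm of the V2 receptor, 12 of 17 genes had a probe and 0 were called, with a median of -0.01 in WR and -0.03 in RWR. Gnas, which encodes the Gs alpha subunit, had 0.04 and -0.11 in WR and 0.10 and -0.02 in RWR. Adcy2, an adenylyl cyclase, had -0.02 and 0.03 in WR and -0.05 and 0.06 in RWR. Of the receptor kinases and arrestins that switch such receptors off, 6 of 6 had a probe, 0 were called, and the medians were 0.03 and 0.04. Grk6 had 0.03 and -0.03 in WR and 0.01 and 0.08 in RWR, and Grk2 0.04 and 0.06 in WR and 0.08 and 0.03 in RWR. Signs within each arm were mixed.

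The list of release and breakdown had 2 of 4 genes with a probe. Cd38, a cyclic ADP-ribose synthase needed for oxytocin release, had 0.66 and -0.52 in WR and 0.62 and -0.49 in RWR. Trpm2, a calcium channel opened by ADP-ribose, had 0.37 and -0.53 in WR and 0.32 and -0.52 in RWR. Both followed the dye. The regulators of magnocellular neurons had 3 of 8 genes with a probe and 0 called, with medians of 0.09 and 0.05. Creb3l1, a transcription factor known to act on the Avp gene, had 0.44 and -0.32 in WR and 0.54 and -0.23 in RWR, and Arnt2, needed for these neurons to develop, had 0.69 and -0.39 and then 0.66 and -0.56. These genes too swung with the dye, with Cy5 the brighter.

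Markers of the labelled tissue were read. All 6 hippocampal principal neuron genes with a probe, of 10 listed, were above background in every reading, and 0 were called, with medians of 0.05 in WR and -0.01 in RWR. Their summed level was 9876 to 10513 in the sedentary readings, 10567 to 10668 in WR and 10071 to 10286 in RWR. Neurod2 averaged 0.07 for WR and 0.04 for RWR, and Calb1, a calcium buffer of granule cells, 0.03 and 0.01. Of the others, Wfs1 averaged 0.10 for WR and 0.04 for RWR, Grik4 0.06 and -0.05, Camk2a 0.01 and -0.03, and Slc17a7 -0.01 and -0.09. The means in RWR thus differed in sign. None of these 6 genes was absent from a pool. Prox1, Neurod6, Zbtb20 and C1ql2, also on the list, had no probe that could be named. No other brain region was measured, so these genes cannot set the hippocampus apart from another region.

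CA2, the hippocampal field where vasopressin receptors are best studied, had 6 of 7 markers with a probe, 5 of them above background in every reading, and 0 called. Pcp4 had -0.09 and -0.02 in WR and -0.10 and -0.04 in RWR, and Rgs14 0.10 and 0.39 in WR and -0.08 and 0.34 in RWR. The medians were -0.03 and -0.05. In WR 3 of the 6 were below 0 on both chips and 2 above, and in RWR 1 was below and 1 above. Over all probes 10.7% were below and 11.6% above in WR, and 14.8% and 12.4% in RWR. The markers of the field thus differed in sign. Their summed level was 28173 to 30886 in the sedentary readings, 28991 to 29860 in WR and 28133 to 28847 in RWR. Most of this sum was Pcp4, with a mean signal of 24844, against 3119 for Rgs14.

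Since Avp is mainly a hypothalamic transcript, hypothalamic and pituitary markers are given beside it. Of 12 hypothalamic markers 7 had a probe, and 4 of these (Pmch, Hcrt, Ghrh and Gnrh1) were above background in every reading. The median of these 4 was -0.0099 in WR and 0.02 in RWR, and that of all 7 was -0.000012 and 0.02. The summed level of the 7 was 599 to 680 in the sedentary readings, 607 to 637 in WR and 665 to 672 in RWR. Sim1 and Otp, listed also among the regulators of magnocellular neurons, had no probe that could be named, so the sum does not cover them. Hcrt, the gene of orexin, had 0.15 and -0.15 in WR and 0.11 and -0.11 in RWR. Ghrh had -0.15 and 0.04 in WR and 0.03 and 0.22 in RWR. Trh, which encodes thyrotropin-releasing hormone, was called higher in WR with 0.79 and 0.93, and had 0.14 and 0.77 in RWR, opposite in sign to Avp. It was above background in 7 of 8 readings, and its WR mean of 0.86 was 0.05 with normexp correction and 0.15 without correction, where it was not called.

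Of 8 pituitary markers 7 had a probe. The medians were -0.06 in WR and 0.06 in RWR, and the summed level was 807 to 949 in the sedentary readings, 771 to 809 in WR and 850 to 940 in RWR. Pou1f1, the transcription factor that defines the cells making growth hormone and prolactin, was above background in 0 of 8 readings and is named for this, after its values had been seen. Pomc had 0.05 and -0.02 in WR and 0.08 and 0.03 in RWR. Gh1, the growth hormone gene, also named after its values had been seen, was above background in 8 of 8 readings. It was below 0 on every chip, with -0.06 and -0.52 in WR and -0.11 and -0.16 in RWR, and was not called. Tshb, Cga and Lhb, named too after their values had been seen, were not called. Tshb averaged 0.37 in WR and 0.36 in RWR and was above background in 4 of 8 readings. Cga averaged -0.06 in WR and 0.04 in RWR, and Lhb -0.11 and 0.06. In WR 2 of the 7 were below 0 on both chips and 0 above, and in RWR 2 were below and 1 above. Over all probes 10.7% were below and 11.6% above in WR, and 14.8% and 12.4% in RWR. Prl, the prolactin gene, was called lower in both, with -1.52 and -0.44 in WR and -1.47 and -0.94 in RWR, from a probe above background in 4 of 8 readings. It was not called in either with normexp or without correction. The part of RNA from these other tissues in the Avp values was not tested.

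For each member above background in every reading, the named genes with the most similar ratios over the 4 chips were found by Euclidean distance among 5924 genes measured in the same way. Nearest to Avp was Pdyn, the prodynorphin gene, at a distance of 0.08. Its ratios were -0.05 and -0.24 in WR and -0.12 and -0.42 in RWR, with means of -0.14 and -0.27, so that it too was lower in RWR than in WR. Akap12 followed at 0.13, with means of -0.21 in both, and Ret at 0.14, with -0.13 and -0.17.

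Nearest to Avpr1a were Cfl1 at 0.06, Or4c11 at 0.07 and Sqor at 0.09. Nearest to Avpr2 were Pttg1 at 0.08, Fcgr2b at 0.13 and Igfbp5 at 0.13. Each of the 3 genes nearest to Avpr1a had the sign pattern of that probe in the deposited ratios. It was below 0 on chips 1 and 3 and above 0 on chips 2 and 4, which is the pattern of the dyes. Likeness over 4 chips of 3 pools is a description and was not tested.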

How the data were processed

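Hippocampal RNA of sedentary, WR and RWR rats, pooled by group, was measured on 4 chips in 2 colours, and each dye's label gave the group. The authors scanned the chips with Feature Extraction 11.0.1.1, which subtracted background and normalized the dyes by LOWESS. For every spot the authors deposited a processed signal, which is its corrected intensity in 1 dye, a log10 ratio with Cy5 as numerator, and a p-value from the error model of a single chip. The deposited series matrix gives log10 Cy5 over Cy3 of the processed intensities.

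Here, control and outlier spots were dropped, each ratio was given the sign of running over sedentary on a log2 scale, and repeated spots were averaged, with the median taken of p-values. For lists, a gene stood by its probe of highest mean signal. The array was designed on rn4, and its unversioned accessions were looked up in a GRCr8 RefSeq table, used for names and neighbours, which named 10759 of 41012 probes as 8893 genes. Promoters came from RefSeq on GRCr8, with windows for all 6 genes. Levels in a dye came from limma 3.58.1 (Aquantile) in R 4.3.3. The alternatives were normexp (offset 50) or no background correction, each on median signals with loess, the series matrix values, median centring, outlier spots kept, filters on p-value and on dim probes, and each chip left out. The named genes were every member probe, the called genes of each list or otherwise those of highest signal, and the 3 genes nearest to each measured member. Pou1f1, Gh1, Tshb, Cga, Lhb, Aqp2, Pcsk1, Wfs1, Grik4, Camk2a and Slc17a7 were added after their values had been seen. The members, lists and motifs were chosen with earlier results of these data known. The selection was tested on simulated chips with known changes. Their noise was smaller than the real difference of the swapped chips and carried no dye effect. It therefore gives no error rate for the real chips. No test between groups was made, since each group is 1 pool, and the number of chips limits the precision. Computations used Python 3.11.15, numpy 2.4.6 and pandas 2.3.3.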

Additional observations from a re-analysis of the deposited data

How the results depend on the processing

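None of the 6 member probes was called in WR, in RWR or between them with normexp, without background correction, with the series matrix values, after median centring or with outlier spots kept, nor, in WR and RWR, with the p-value filter or the filter on dim probes. With a single chip of a pair, 2 to 3 probes passed in WR and 2 to 3 in RWR, and with a single dye 2 passed between RWR and WR in either dye. These were the second Avp probe, Oxt and Oxtr, near or at background, and never the main Avp probe, Avpr1a or Avpr2. The single-chip ratios of Avpr1a ran from -0.03 to 0.30 in WR and from -0.22 to 0.37 in RWR, the lower with the runners in Cy5. Of 30 values under the 2 background alternatives, 29 equalled the reported one or moved by less than the SD of the 2 chips, which is wide where the ratio swung with the dye. The other was Avpr2 in RWR, at -0.02 without background correction. No paired analysis was possible because each group is 1 pool and the labels give no replicate numbers. A fold of Oxtr could not be measured at its signal, nor one of Oxt in WR by position.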

Other observations

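Aqp2, the water channel that vasopressin moves to the cell surface in the kidney through the V2 receptor, had a probe above background in all 8 readings of this hippocampal RNA. It was singled out after its values had been seen. Its ratios were -0.04 and 0.03 in WR and -0.05 and 0.03 in RWR, and it was not called. Pcsk1, the prohormone convertase that opens the processing of many neuropeptide precursors, also singled out after its values had been seen, was the 1 gene of the peptide maturation list above 0 on all 4 chips, with 0.13 and 0.11 in WR and 0.21 and 0.14 in RWR, in the direction opposite to Avp.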
